A study of Homo sapiens with 6 samples.

Results

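The interferon regulatory factor (IRF) genes IRF1, IRF2, IRF3, IRF4, IRF5, IRF7, IRF8 and IRF9 were followed through the open chromatin maps of a myeloma cell line. They were chosen by name and not by a rule on measured values, but with earlier results of these data known. They are 8 of the 20033 protein-coding genes of GENCODE release 44. The maps came from 6 Omni-ATAC libraries, an assay in which a transposase cuts accessible DNA so that open sites gather sequenced ends, called tags here. All 6 were made from MM.1S, an established human multiple myeloma line of malignant plasma cells, after sorting for live cells. In 3 libraries the cells had been treated with 120 nM CB-6644 for 72 h, a small-molecule inhibitor of the ATPases RUVBL1 and RUVBL2, which are subunits of several chromatin remodelling complexes. In the other 3 libraries the cells had received DMSO, the solvent, for which the labels give neither amount nor time.

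IRF proteins share a DNA-binding domain that reads repeats of GAAA, and they carry signals from interferon receptors and pathogen sensors to their target genes. IRF4 and IRF8 bind poorly alone and pair with PU.1 or SPIB, or with BATF and JUN, at composite sites. In plasma cells IRF4 works with PRDM1 to keep the secretory program running, and myeloma cells are known to depend on it.

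Each library was represented by its list of peaks, the stretches where tags stood above their surroundings. Peaks of the 6 lists that overlapped by at least 1 bp were merged into 89196 regions. A gene's window was its body plus 50 kb on each side, and a promoter was the stretch within 1000 bp of any annotated transcript start. The strength of a peak was expressed by its percentile, its rank by -log10 p among all peaks of its own library, with 100 for the strongest.

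The libraries were not alike, and part of this cut across the groups. CB-6644 replicate 2 and DMSO replicate 1 had shortest peaks of 65 and 91 bp, against 131 to 152 bp in the other 4, and are called the short-fragment libraries below. The lists held 58563 to 79020 peaks, and the genome-wide background ran from 3.20 to 9.08 tags per kb, lowest in CB-6644 replicate 2. Within the short-fragment set and within the long-fragment set, each CB-6644 library had fewer peaks and a lower background than each DMSO library. Within these sets, list length and background therefore cannot be told apart from treatment. A site without a peak has no recorded value, so an absent call means only that the site did not pass the caller's threshold in that library. The labels do not say whether replicates were separate cultures, so p-values measure the spread between these libraries, which may be technical. Of the plasma cell markers, 7 of 8 had a promoter peak in all 6 libraries, against 2 of 5 for mature B cells, 1 of 4 for T cells, 2 of 4 for myeloid cells and 3 of 4 for epithelial or stromal cells. MS4A1 and CD22 of the B cell list, CD2, CD3D and CD3E of the T cell list, and CSF1R and LYZ of the myeloid list had no promoter peak in any library. Those with a promoter peak in all 6 were PAX5 and CIITA (B cell), LCK (T cell), CD14 and SPI1 (myeloid), and EPCAM, PDGFRB and COL1A1 (epithelial or stromal). JCHAIN was the plasma cell marker without one in all 6.

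The windows of the 8 genes held 116 merged regions, and most were open with and without the inhibitor. Of these regions 67 were called in all 6 libraries, which is 57.8%, against 47.2% of all merged regions. DMSO-only regions, called in all 3 DMSO libraries and in no CB-6644 library, numbered 5, or 4.31%, against 4.5% of all merged regions. There was 1 CB-6644-only region, or 0.862%, against 0.586% of all merged regions. The other 43 regions were called in mixed sets of libraries, 18 of them in 1 library alone. The shares of group-only regions were near those of the genome, and 4 of the 6 lay around IRF4.

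**Figure D1:**
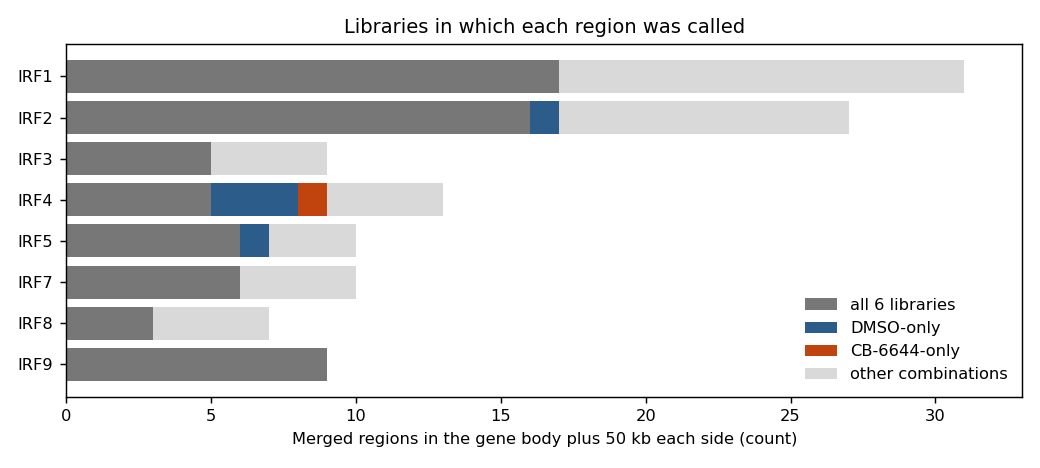
Bars give the number of merged regions in each gene's window, split by the libraries in which the region was called (all 6, DMSO-only, CB-6644-only, or other combinations). IRF4 holds 3 DMSO-only regions and the single CB-6644-only region, while all 9 regions around IRF9 were called in all 6 libraries.

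Counted library by library, the windows held 80, 114 and 91 peaks in CB-6644 replicates 1 to 3 and 120, 102 and 88 in DMSO replicates 1 to 3. The groups overlapped, with means of 95 ± 17.3 and 103 ± 16.04 (SD, n = 3 each) and an exact two-sided permutation p = 0.6. A comparison of 3 libraries against 3 cannot give a p below 0.1. No gene of the 8 had more peaks in every CB-6644 library than in every DMSO library, which was true of 0.484% of protein-coding genes. Per 10000 peaks of the library the difference changed sign, to 0.646 more in the CB-6644 libraries (exact permutation p = 0.5).

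Every one of the 8 genes had a promoter peak in all 6 libraries, as had 66.2% of protein-coding genes. None of the 67 regions called in all 6 libraries passed the test of the fold enrichment, the ratio of the tags at the summit to the local background around it, each with 1 added. With limma on quantile-normalised log2 fold enrichment over 42089 regions, 0 member regions fell and 0 rose, against 0.461% and 0.513% of all regions, and the smallest adjusted p was 0.153. At an unadjusted p under 0.05 there were 8 of the 67, a smaller share than the 14.7% of all regions. Within-library percentiles gave 14 member regions in which every CB-6644 library ranked below every DMSO library, or 20.9%, against 24.6% of all regions. The reverse order was found in 4, or 5.97%, against 5.61% of all regions. Away from protein-coding promoters, 11 of 38 were lower, against 27.7%, and 2 higher, against 7.37%, while at promoters 3 of 29 were lower, against 18.6%, and 2 higher, against 2.31%. Apart from the 2 at promoters, these shares were close to or below the background, and 4 of the 14 lower regions belonged to IRF4, which has 5 regions called in all 6 libraries.

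**Figure D2:**
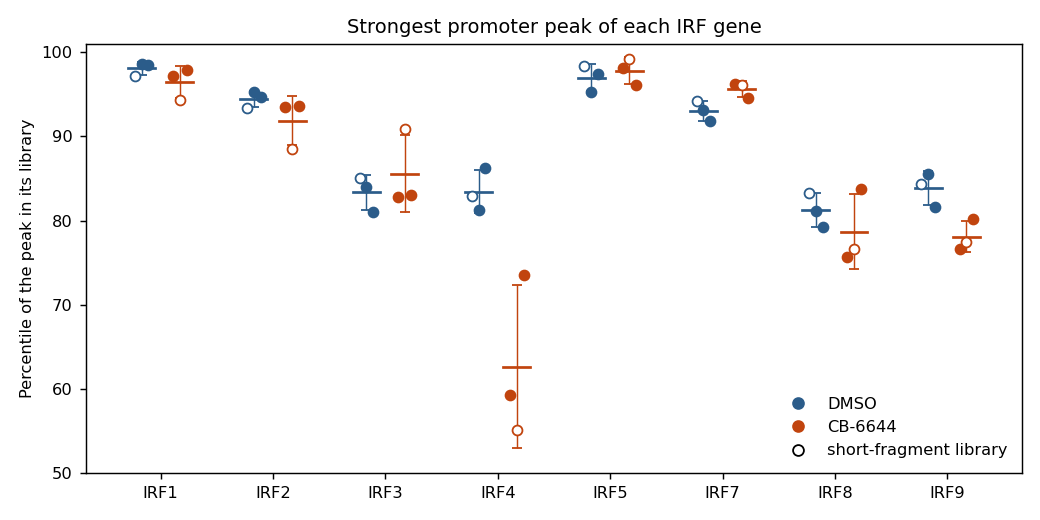
Points give the within-library percentile of the strongest promoter peak of each gene in each library, horizontal lines the mean of 3 libraries and bars 1 SD, with open points for the short-fragment libraries. The IRF4 promoter lies between 55.1 and 73.5 in the CB-6644 libraries and between 81.2 and 86.2 in the DMSO libraries, and the other promoters differ by far less.

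IRF4, the plasma cell member, lies on chromosome 6 from 391739 to 411443 (hg38, plus strand), with DUSP22 as the only other protein-coding gene in its window. The window held 6, 8 and 9 peaks in CB-6644 replicates 1 to 3 and 11, 13 and 10 in DMSO replicates 1 to 3. Every CB-6644 library had fewer peaks there than every DMSO library, as in 6.91% of protein-coding genes, with means of 7.67 ± 1.53 and 11.3 ± 1.53 (SD, n = 3 each; exact permutation p = 0.1, the smallest possible). The bases covered by peaks were separated in the same way, at 2.396, 1.21 and 2.55 kb against 2.72, 4.55 and 4.15 kb (exact permutation p = 0.1). The difference of -3.67 peaks depended on how the lists were set to equal length. With as many of the strongest peaks from each library as the shortest list holds, it turned to 0.667, while with the 20000 strongest peaks it was -2 and the groups were again apart (exact permutation p = 0.1). Per 10000 peaks of the library it was -0.361 (exact permutation p = 0.3).

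The IRF4 promoter region (chr6:391176-392450) was called in all 6 libraries and ranked lower after treatment. Its percentiles were 59.2, 55.1 and 73.5 in CB-6644 replicates 1 to 3 and 82.9, 81.2 and 86.2 in DMSO replicates 1 to 3. The groups did not overlap, as in 17.1% of the 13270 genes whose strongest promoter region was called in all 6 libraries (exact permutation p = 0.1). The difference of means was -20.8 percentile points, and 1.33% of those genes had a difference as low or lower, around a median of -1.02. Summit pile-up, the number of tags stacked at the highest point, was 98, 42 and 166 tags in the CB-6644 libraries and 169, 245 and 267 in the DMSO libraries, again without overlap. These pile-ups are not scaled for depth, and the background ran from 3.20 to 7.05 tags per kb in the CB-6644 libraries and from 6.404 to 9.08 in the DMSO libraries. The fold enrichment was 7.62, 9.05 and 9.08 against 13.3, 9.75 and 10.5, and the limma fit gave a log2 difference of -0.24 ± 0.15 (SE), adjusted p = 0.519.

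The fold divides each summit by the tags around it, and around IRF4 these surroundings were themselves lower after treatment. Both parts of the ratio were therefore set against the genome-wide background of the library, a pair of measures added after the values above had been seen. At the promoter the local background was 15.3, 18.0 and 17.7 times genome-wide in the CB-6644 libraries and 20.3, 20.4 and 19.9 times in the DMSO libraries, with means of 17.04 ± 1.48 and 20.2 ± 0.28 (exact permutation p = 0.1). Summit pile-up was 125, 202 and 169 times genome-wide against 290, 206 and 217 times. In both measures each CB-6644 library was below each DMSO library, which for the local background was true of 19.7% and for the pile-up of 5.52% of all regions called in all 6 libraries. In a bulk sample, fewer cells with an open site and a less open site in every cell cannot be told apart.

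An intronic IRF4 region (chr6:399774-400174), whose summit lies 8201 bp downstream of the start, showed the difference between these measures and the fold most plainly. Its local background was 11.3, 8.69 and 10.99 times genome-wide in the CB-6644 libraries and 18.4, 19.0 and 21.4 times in the DMSO libraries. Its pile-up was 93.4, 115 and 96.9 times genome-wide against 151, 152 and 150 times. Neither measure overlapped between groups, with mean local backgrounds of 10.3 ± 1.44 and 19.6 ± 1.56 and mean pile-ups of 102 ± 11.8 and 151 ± 0.9 (each exact permutation p = 0.1). Over all regions called in all 6 libraries, the local background was lower without overlap in 19.7% and the pile-up in 5.52%. The percentiles of the intronic region were 48.7, 38.8 and 54.6 against 58.0, 70.1 and 69.5, also without overlap. Such an order of percentiles was found in 27.7% of regions called in all 6 libraries away from protein-coding promoters. The fold enrichment went the other way, with a log2 difference of 0.29 ± 0.15 (SE; limma adjusted p = 0.430).

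A region downstream of IRF4 (chr6:434621-435243), 43107 bp from its start, is the strongest one in the window outside promoters. Its percentiles were 62.3, 12.1 and 54.8 in the CB-6644 libraries and 77.8, 82.3 and 79.2 in the DMSO libraries. Its pile-up was 67.8, 38.5 and 53.1 times genome-wide against 146, 122 and 102 times, and its local background 2.22, 1.498 and 1.92 times against 3.76, 3.80 and 3.82 times. All these measures were separated by group, with mean pile-ups of 53.1 ± 14.7 and 123 ± 22.1 (exact permutation p = 0.1). Percentiles were lower without overlap in 27.7% of regions called in all 6 libraries away from protein-coding promoters. Over all regions called in all 6 libraries, the local background was lower without overlap in 19.7% and the pile-up in 5.52%. At the downstream region the log2 difference in fold enrichment was -0.75 ± 0.37 (SE; limma adjusted p = 0.416). Without CB-6644 replicate 2, the library with the lowest percentile, it was -0.24. At the promoter, the intronic and the downstream region the pile-up over genome-wide background was separated by group over all 6 libraries. Its separation among the 4 long-fragment libraries follows from this and adds no support.

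The remaining pair of shared IRF4 regions, upstream of the gene, was weaker. The one at -9738 bp had percentiles of 11.9, 1.92 and 10.1 in the CB-6644 libraries and 14.0, 33.3 and 26.3 in the DMSO libraries, without overlap, but its pile-up over genome-wide background overlapped between groups. Percentiles were ordered this way in 27.7% of regions called in all 6 libraries away from protein-coding promoters. The one at -18980 bp, which holds a match to the composite IRF and ETS letters, overlapped between groups in its percentiles, with means of 23.1 ± 17.2 and 23.6 ± 8.81.

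**Figure D3:**
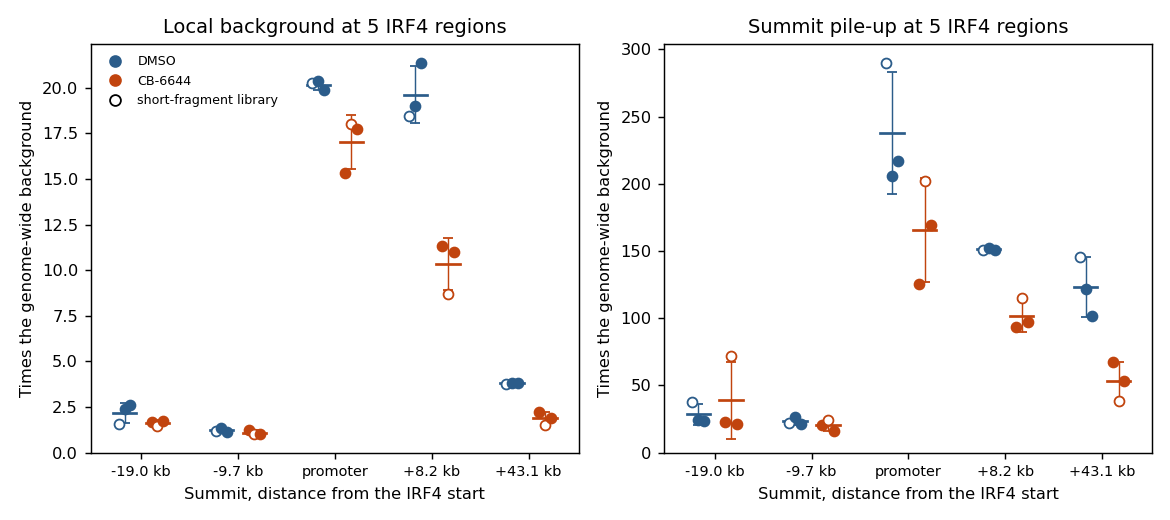
Points give local background (left) and summit pile-up (right), both as multiples of the library's genome-wide background, at the 5 IRF4 regions called in all 6 libraries, with lines at the mean of 3 libraries, bars of 1 SD and open points for short-fragment libraries. At the promoter, +8.2 kb and +43.1 kb all CB-6644 points lie below all DMSO points in both panels, while the upstream pair of regions overlaps.

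The 4 group-only regions of IRF4 lie in its body and just downstream. At least 3 DMSO-only regions within a window occurred at 0.869% of protein-coding genes, and regions of both group-only classes at 1.07%. A site is called exonic where any base of its merged region overlaps an annotated exon, so its summit may lie in an intron. An exonic DMSO-only site (chr6:397101-397270) had 36, 65 and 79 tags at its summit in DMSO replicates 1 to 3, at percentiles of 1.10, 3.40 and 9.88. A second exonic DMSO-only site (chr6:398742-399169) had 50, 79 and 81 tags, at percentiles of 20.8, 16.6 and 13.8. Both ranked low in their lists, with folds between 2.38 and 4.04 over a local background between 19.96 and 23.95 times genome-wide. A DMSO-only site downstream of the gene (chr6:414538-414745) had 18, 32 and 34 tags, at percentiles of 5.47, 10.6 and 9.69.

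The CB-6644-only region (chr6:397703-397868) lies in an intron between the exonic DMSO-only sites. It had 66, 38 and 69 tags at its summit in CB-6644 replicates 1 to 3, with folds of 5.33, 9.79 and 4.19 and percentiles of 33.8, 54.4 and 22.8. This pile-up was 84.4, 183 and 70.4 times genome-wide, over a local background of 14.8, 14.3 and 16.02 times, and the site ranked higher in its libraries than any of the 3 DMSO-only sites did in theirs. A region with CB-6644-only calls lay in the window of 4.29% of protein-coding genes. The DNA around the strongest summit of each of the 4 sites is shown because these are the stretches of the gene called under a single condition. It is from hg38, plus strand, 5′ to 3′, and capitals mark the letters that match the NF-kB consensus.
DMSO-only exonic site, chr6:397137-397217: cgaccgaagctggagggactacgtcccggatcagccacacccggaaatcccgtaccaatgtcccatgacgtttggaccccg
CB-6644-only intronic site, chr6:397770-397850: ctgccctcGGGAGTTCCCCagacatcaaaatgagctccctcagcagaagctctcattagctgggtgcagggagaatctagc
DMSO-only exonic site, chr6:398932-399012: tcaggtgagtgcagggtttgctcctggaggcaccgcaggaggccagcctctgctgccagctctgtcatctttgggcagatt
DMSO-only downstream site, chr6:414633-414713: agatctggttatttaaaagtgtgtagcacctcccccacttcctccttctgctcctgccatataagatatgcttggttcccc

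These group-only calls depended on how the lists were cut. With equal numbers of strongest peaks from each library, the 3 DMSO-only calls of IRF4 became 0, and with the 20000 strongest peaks there was 1. Among the 4 long-fragment libraries thinned to an equal background and a -log10 p of at least 20, IRF4 had neither class, with 0 regions each. The CB-6644-only region of IRF4 was also lost with the 20000 strongest peaks and kept its count of 1 with equal numbers.

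**Figure D4:**
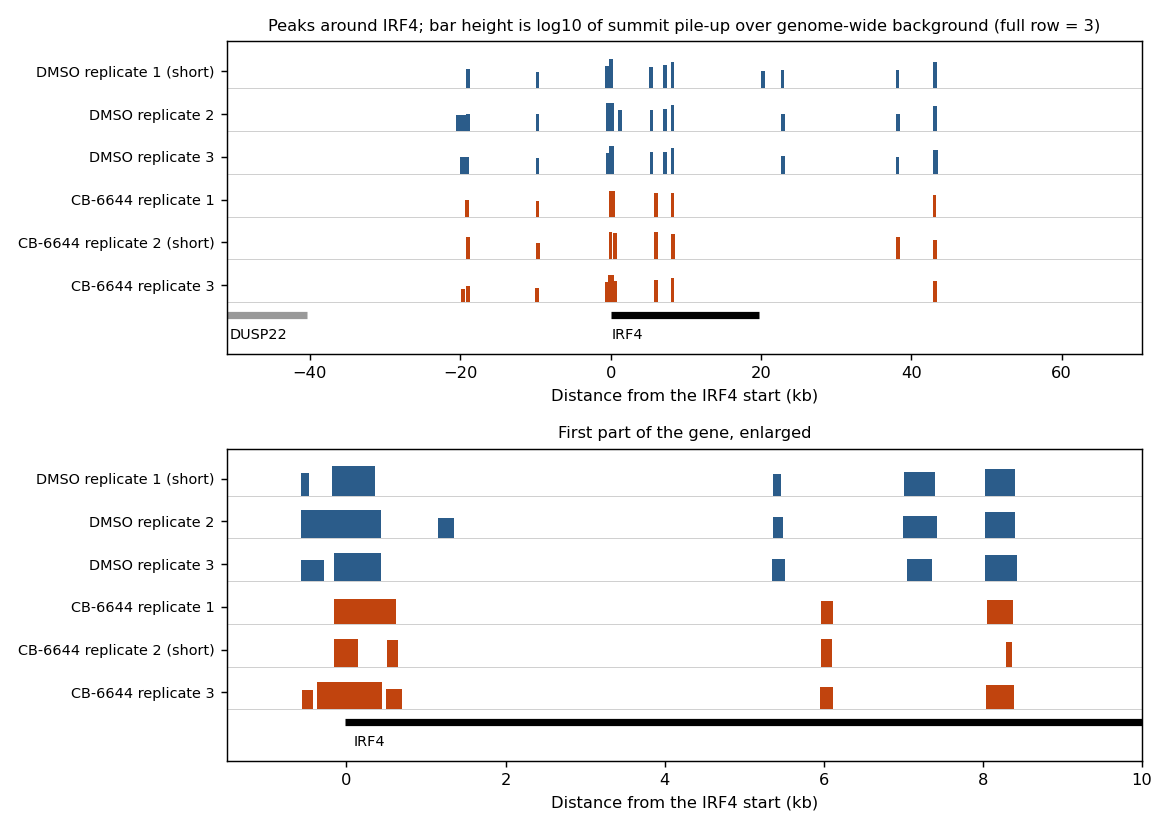
Bars mark the peaks of each library by distance in kb from the IRF4 start, over the whole window (top) and the first part of the gene (bottom), with heights proportional to log10 of the summit pile-up over the library's genome-wide background. The exonic DMSO-only pair near 5.4 and 7.2 kb is absent from the CB-6644 rows, where the CB-6644-only peak near 6.1 kb stands between them.

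The promoters whose percentiles over the 6 libraries were nearest to those of the IRF4 promoter were found among 13269 other genes by Euclidean distance. CALHM5 and TRAPPC3L, which share a promoter region, were at 8.96 percentile points, and CPAMD8 was at 10.7. The region of CALHM5 and TRAPPC3L had percentiles of 64.8, 56.6 and 68.7 in the CB-6644 libraries and 82.0, 85.9 and 85.6 in the DMSO libraries.

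IRF8, which directs B cell and myeloid development, lies on chromosome 16 from 85899116 to 85922606 (plus strand) with no other protein-coding gene in its window. No library had a peak within 1000 bp of its annotated gene start or of its canonical transcript start. Among protein-coding genes, 36.4% had no peak at the gene start in any library. Its promoter peak stood instead 3664 bp downstream, at starts of shorter transcripts (chr16:85902369-85903173), with percentiles of 75.7, 76.6 and 83.8 in the CB-6644 libraries and 83.3, 81.1 and 79.2 in the DMSO libraries. The groups overlapped and the log2 difference in fold enrichment was -0.03 ± 0.13 (SE; limma adjusted p = 0.934). With 7 regions, 3 of them called in all 6 libraries, IRF8 had the fewest regions of the 8 genes. Its strongest region outside promoters (chr16:85947714-85948373, 48762 bp downstream of the start) had percentiles of 45.5, 64.4 and 44.4 against 69.2, 69.0 and 75.1. Every CB-6644 library was below every DMSO library there, with a log2 difference in fold enrichment of -0.29 ± 0.14 (SE), adjusted p = 0.385. The same order of percentiles was found in 27.7% of regions called in all 6 libraries away from protein-coding promoters.

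IRF1, an activator induced by interferon gamma, lies on chromosome 5 from 132440440 to 132508719 (minus strand) and had 31 regions, 17 of them called in all 6 libraries. The annotated gene start is that of a long transcript and had no peak in any library, while the canonical start was called in all 6. The promoter region there (chr5:132490469-132491400) had percentiles of 97.2, 94.4 and 97.9 in the CB-6644 libraries and 97.2, 98.6 and 98.5 in the DMSO libraries. It was among the strongest peaks of each library, the groups overlapped, and the log2 difference in fold enrichment was 0.16 ± 0.12 (SE; limma adjusted p = 0.577). The promoter sequence is shown because it holds a match to the gamma-activated site (GAS), a motif of interferon-induced promoters. It is from RefSeq (GRCh38.p14), minus strand, 5′ to 3′, with capitals at the GAS match that begins at -124 bp and the NF-kB match that begins at -50 bp from the RefSeq start.
IRF1 promoter, chr5:132490789-132490922: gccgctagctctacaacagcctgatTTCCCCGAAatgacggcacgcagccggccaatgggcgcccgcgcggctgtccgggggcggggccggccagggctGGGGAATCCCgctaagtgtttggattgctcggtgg

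Away from its promoter, IRF1 had regions that ranked on either side, named here after their values were seen. An upstream region with an ISRE match (chr5:132525255-132525618) had percentiles of 63.4, 35.7 and 56.7 in the CB-6644 libraries and 65.4, 83.5 and 80.6 in the DMSO libraries. A downstream region (chr5:132426537-132427128) had 34.6, 55.4 and 35.8 against 74.4, 72.6 and 62.5. Of all regions called in all 6 libraries away from protein-coding promoters, 27.7% ranked lower without overlap and 7.37% higher. Both of these IRF1 regions were separated in the lower direction. The limma fits of their fold enrichment gave adjusted p of 0.525 and 0.789, while the same fit on summit pile-up gave the downstream region a log2 difference of -0.68 ± 0.14 (SE), adjusted p = 0.020. The opposite order was found at another downstream region (chr5:132419559-132419921), with percentiles of 60.3, 65.8 and 61.9 against 49.0, 47.5 and 42.9, a log2 difference in fold enrichment of 0.72 ± 0.20 (SE; adjusted p = 0.153) and one in pile-up of 0.57 ± 0.14 (adjusted p = 0.035). In the pile-up fit 5.48% of all regions fell and 5% rose. The strongest IRF1 region outside promoters (chr5:132477584-132478381, in an intron) had percentiles of 86.2, 92.8 and 80.6 against 91.5, 88.9 and 89.7, with overlap.

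IRF2, which competes with IRF1 for the same sites, lies on chromosome 4 from 184385702 to 184474558 (minus strand) and had 27 regions, 16 of them called in all 6 libraries. Its promoter (chr4:184473974-184475056) had percentiles of 93.6, 88.5 and 93.6 in the CB-6644 libraries and 93.4, 95.3 and 94.8 in the DMSO libraries. The groups overlapped, with a log2 difference in fold enrichment of 0.09 ± 0.13 (SE; limma adjusted p = 0.764). An upstream region with no gene promoter (chr4:184506521-184507120) was as strong as the promoter, at 93.6, 96.9 and 90.8 against 97.0, 95.3 and 95.3, also with overlap. Its single DMSO-only region (chr4:184404171-184404343, in an intron) had 22, 24 and 25 tags in DMSO replicates 1 to 3, at percentiles of 36.2, 21.8 and 21.6. The count of DMSO-only regions near IRF2 was 2 without DMSO replicate 2, 3 without DMSO replicate 3, and 3 when 2 of the 3 DMSO libraries sufficed. Of its 16 shared regions 4 ranked lower without overlap, or 25%, a share like the 24.6% of all regions. The one with the largest difference (chr4:184427002-184427611), named after its values were seen, had percentiles of 55.3, 19.5 and 42.6 against 69.5, 70.2 and 77.6. Its log2 difference in fold enrichment was -0.77 ± 0.24 (SE), adjusted p = 0.198.

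IRF3 and IRF7 are the factors that are phosphorylated downstream of nucleic acid sensors and switch on type I interferon genes. IRF3 lies on chromosome 19 from 49659569 to 49665875 (minus strand), and its promoter region (chr19:49665383-49666222) also serves BCL2L12. Its percentiles were 82.9, 90.9 and 83.0 in the CB-6644 libraries and 85.1, 84.0 and 81.0 in the DMSO libraries. They overlapped, and the log2 difference in fold enrichment was 0.28 ± 0.23 (SE; limma adjusted p = 0.615). Outside gene promoters the strongest IRF3 region (chr19:49680786-49680933) was called in CB-6644 replicate 2 and DMSO replicate 1 alone, which are the short-fragment libraries.

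IRF7 lies on chromosome 11 from 612553 to 615983 (minus strand), and it was the only one of the 8 genes whose strongest promoter region ranked higher in every CB-6644 library. The region (chr11:615321-616324) had percentiles of 96.3, 96.1 and 94.6 in the CB-6644 libraries and 94.2, 93.2 and 91.8 in the DMSO libraries. The difference of means was 2.60 percentile points (exact permutation p = 0.1), an order found in 1.84% of genes with such a region. Its fold enrichment overlapped between groups, with a log2 difference of 0.32 ± 0.15 (SE; limma adjusted p = 0.378), and so did its pile-up over genome-wide background. The local background was 14.5 ± 0.70 times genome-wide in the CB-6644 libraries and 12.9 ± 0.46 times in the DMSO libraries, without overlap (exact permutation p = 0.1). Over all regions called in all 6 libraries, 14.6% had a higher local background without overlap. The region downstream of the gene (chr11:568363-568896) that was strongest outside promoters had 92.8, 96.5 and 95.8 against 96.8, 96.2 and 92.2. An upstream region (chr11:629059-629588), named after its values were seen, ranked lower without overlap, at 57.7, 33.4 and 59.6 against 74.6, 77.9 and 75.2 (log2 difference in fold enrichment -0.51 ± 0.21, SE; adjusted p = 0.324). Such an order was found in 27.7% of regions called in all 6 libraries away from protein-coding promoters.

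IRF5, which acts in Toll-like receptor signaling through MYD88, lies on chromosome 7 from 128937457 to 128950038 (plus strand) and had the promoter with the highest mean percentile of the family in treated cells, 97.8 ± 1.57 (SD, n = 3). Its stronger promoter region (chr7:128940070-128941353) had percentiles of 98.1, 99.2 and 96.1 in the CB-6644 libraries and 98.3, 95.2 and 97.4 in the DMSO libraries. The region at its canonical start (chr7:128937599-128938293) had 83.2, 89.8 and 87.5 against 94.7, 90.6 and 87.3. Both overlapped between groups, with log2 differences in fold enrichment of 0.47 ± 0.25 and 0.16 ± 0.27 (SE; limma adjusted p = 0.448 and 0.812). Between them lay a DMSO-only region (chr7:128938907-128939518) with 79, 116 and 125 tags in DMSO replicates 1 to 3, at percentiles of 23.5, 18.4 and 21.3 and folds of 2.61 to 3.11. It was not DMSO-only when a library had to cover at least 50% of the region, with equal numbers of strongest peaks, with the 20000 strongest peaks, or among the 4 long-fragment libraries at equal background. The stretch before the RefSeq start of the stronger promoter is shown because it holds the only match to the composite IRF and ETS letters among the members' RefSeq promoters searched. It is from RefSeq (GRCh38.p14), plus strand, 5′ to 3′, with that match, which begins at -33 bp, in capitals.
IRF5 promoter, chr7:128940612-128940669: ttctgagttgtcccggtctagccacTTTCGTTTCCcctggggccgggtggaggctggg

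IRF9, the DNA-binding subunit of the complex that forms after type I interferon, lies on chromosome 14 from 24161234 to 24168043 (plus strand) among 19 other protein-coding genes. All its 9 regions were called in all 6 libraries, and 8 of them lay at promoters of other genes. The promoter region (chr14:24160923-24161708) is shared with RNF31 and had percentiles of 76.7, 77.4 and 80.2 in the CB-6644 libraries and 84.3, 85.6 and 81.6 in the DMSO libraries. Every CB-6644 library was lower, with a difference of means of -5.73 percentile points (exact permutation p = 0.1). Among genes whose strongest promoter region was called in all 6 libraries, 17.1% had this order and 16.1% a difference as low or lower. At the IRF9 promoter region, other measures were less apart. Its fold enrichment and its local background overlapped between groups, and the log2 difference in fold enrichment was -0.13 ± 0.12 (SE; limma adjusted p = 0.654). The GAS letters of this promoter are shown for comparison with IRF1, from RefSeq (GRCh38.p14), plus strand, 5′ to 3′, with the GAS match that begins at -63 bp from the RefSeq start in capitals.
IRF9 promoter, chr14:24161192-24161220: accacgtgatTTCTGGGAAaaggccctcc

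Over the regions of all 8 genes, the direction of a difference depended on the measure. Among the 67 regions called in all 6 libraries, 48 had a higher and 19 a lower fold enrichment in the CB-6644 libraries, with a median log2 difference of 0.16 against 0.02 over all regions. On summit pile-up 36 were higher and 31 lower, with a median log2 difference of 0.023, near the 0.013 over all regions. A higher fold with a lower pile-up was found at 17 regions (25.4%, against 13.8% of all regions), and the opposite at 5 (7.46%, against 11.9%). The local background over genome-wide background was lower in every CB-6644 library at 24 of the 67, or 35.8%, against 19.7% of all regions, and higher at 3, or 4.48%, against 14.6%. The 24 were not spread over the family, since 12 were at IRF1, 7 at IRF2, 3 at IRF4, 1 at IRF7 and 1 at IRF8. Neighbouring regions can carry nearly the same local background, so the 24 are not separate observations. For example, the IRF1 regions at 23778 and 22982 bp had local backgrounds of 16.22 and 16.24 tags in CB-6644 replicate 1. The pile-up over genome-wide background was lower at 8, or 11.9%, against 5.52%, and higher at 2, or 2.99%, against 5.77%. Of these 8 regions 3 were at IRF2, 3 at IRF4, 1 at IRF1 and 1 at IRF7.

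**Figure D5:**
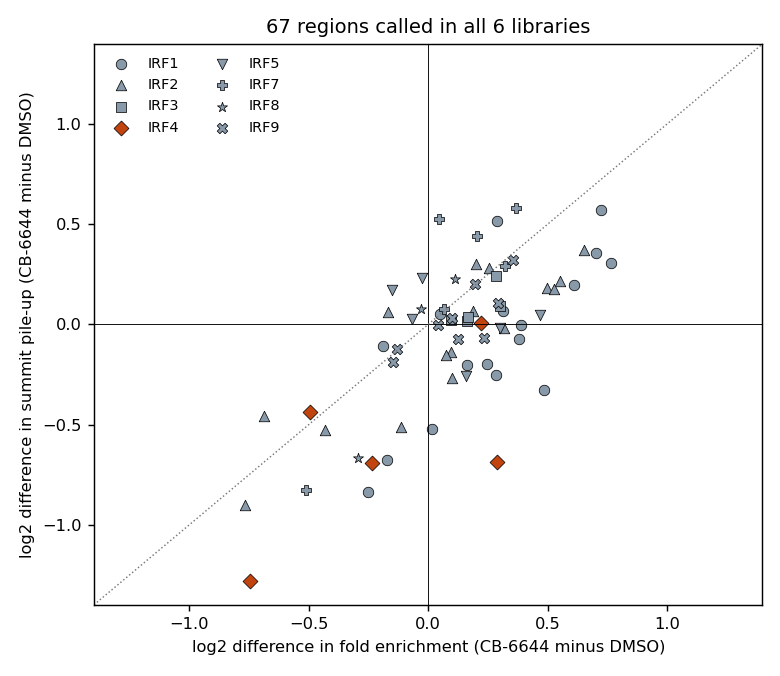
Each point is 1 of the 67 regions called in all 6 libraries, by its log2 difference (CB-6644 minus DMSO) in fold enrichment on the horizontal axis and in summit pile-up on the vertical axis, both quantile-normalised, with the dotted line where they are equal. IRF4 regions (filled diamonds in the treatment colour) include the lowest pile-up difference, -1.28, and one region with a positive fold difference of 0.29 and a pile-up difference of -0.69.

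A fit of summit pile-up with the short- or long-fragment set of the library as a term was added after the values were seen. In that limma fit 11 of the 67 regions fell and 4 rose at an adjusted p under 0.05, against 10.8% and 10.1% of all regions. The same term in the fit of fold enrichment gave 3 that fell and 4 that rose, against 4.01% and 3.4%. In the pile-up fit IRF4 accounted for 4 of the 11, with log2 differences of -0.69 ± 0.16 (SE) at the promoter (adjusted p = 0.018), -0.69 ± 0.12 at the intronic region (adjusted p = 0.0057), -1.28 ± 0.22 at the downstream region (adjusted p = 0.0053) and -0.44 ± 0.13 at -9738 bp (adjusted p = 0.047). No strongest promoter region of the other 7 genes passed in that fit. The fit of pile-up without this term called 1 member region lower and 1 higher, both at IRF1 and none at IRF4, where the promoter had an adjusted p of 0.087 and the downstream region 0.058.

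Sequence motifs of the IRF pathway were looked for, in either orientation, up to 100 bp from the highest summit of each region. They were the interferon-stimulated response element (ISRE, GAAA repeated in one direction with a gap of 2 bases), the ETS and IRF composite element (EICE, GGAA and GAAA with a gap of 2 bases), the AP-1 and IRF composite elements (AICE, TTTC and TGANTCA with a gap of 4 bases, or GAAA joined to TGANTCA), the gamma-activated site (GAS, TTCNNNGAA), the AP-1 site (TGANTCA) and the NF-kB site. An AICE match always contains AP-1 letters. ISRE letters were found in 6 of the 116 member regions, or 5.17%, against 10.1% of all merged regions, and all 6 were near IRF1 or IRF2. EICE letters were found in 4, or 3.45%, against 4.84%, and AICE letters in 1, near IRF2. GAS letters were found in 8, or 6.90%, against 5.52%, and 4 of these were the strongest promoter regions of IRF1, IRF2, IRF7 and IRF9. NF-kB letters were found in 9, or 7.76%, against 4.37%, and AP-1 letters in 9, or 7.76%, against 10.5%. Among 35116 RefSeq promoters, GAS letters occurred in 7.66%, NF-kB letters in 5.91%, ISRE letters in 3.57% and EICE letters in 2.82%. Of the 8 genes, 5 were matched in the RefSeq promoter table, and no match means only that these letters are not in the window searched.

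The partners, upstream signaling genes and targets of the family gave no calls on fold enrichment. Of 10 genes for partner factors, 9 had a promoter peak in all 6 libraries, and SPIB, an ETS partner of IRF4, had none in any. Of these, 0 fell and 0 rose in the limma fit (1 at an unadjusted p under 0.05), with a median log2 difference of 0.15. Promoter percentiles were lower without overlap at BATF3, PRDM1 and IKZF1 and higher at 0 of the partners reported. These orders were found in 17.1% and 1.84% of genes whose strongest promoter region was called in all 6 libraries. Among the partners, DMSO-only regions lay near PRDM1, IKZF1, SPIB and IKZF3, which had 2, while 19.8% of all protein-coding genes had at least 1 in their window. BATF3, a subunit of the AICE complex, had the single CB-6644-only region among them. All 14 upstream signaling genes, which span MYD88, TBK1, the interferon receptors and the Janus kinases, had promoter peaks in all 6 libraries, with 0 that fell, 0 that rose, 0 at an unadjusted limma p under 0.05, and 4 (28.6%) with a DMSO-only region, namely JAK1, IKBKE, and IFNAR1 and IFNAR2, which share theirs. Their promoter percentiles were lower without overlap at 2 of the 14, IKBKE and JAK2, and higher at 0.

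Of 26 interferon-stimulated genes, 22 had a promoter peak in all 6 libraries and 1, IFI27, had none in any. In this list 0 fell and 0 rose by limma (1 at an unadjusted p under 0.05), with a median log2 difference of 0.04. Percentiles could be compared at the 22 genes whose strongest promoter region was called in all 6 libraries. They were lower without overlap at 6 (IFIT1, IFIT3, RSAD2, DDX60, PSMB9 and BST2) and higher at 2 (IFIT2 and USP18). Among all genes with such a region the shares were 17.1% and 1.84%. DMSO-only regions lay near 3 of the 26, or 11.5%, which is below the 19.8% of protein-coding genes, and IFI44 and IFI44L share theirs, while IFI6 has its own. A CB-6644-only region lay near CXCL10, 1 of the 26, or 3.85%, against 4.29%.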

How the data were processed

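Peak lists of 6 Omni-ATAC libraries (3 CB-6644, 3 DMSO; groups and replicate numbers from the labels) were analysed. Per the labels, the authors mapped reads with Bowtie2 2.4.2 (hg38) and called peaks per library with MACS3 3.0. The caller's settings are not given in the sources used here. The deposited fold enrichment is a ratio of summit pile-up to local background, each with 1 added. The deposited -log10 p and -log10 q are the caller's values at the summit. No value is scaled between libraries. The summit offset was also read. The authors' test of differential accessibility used read counts, which were not analysed here.

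The members and gene lists were chosen with earlier results of these data known. Regions were named by rule (the strongest promoter of each gene, all group-only regions, the strongest region outside promoters, any region past the limma threshold), with others named after their values were seen. The values of 1 gene of the partner list are not reported here. Pile-up and local background were solved from fold and -log10 p under a Poisson model, which matched 100% of peaks within a tolerance of 0.01. The lowest local background of a list was taken as its genome-wide background, and over the shortest peak it gave background tags per kb, a stand-in for depth, since read totals are unknown. That the length of the shortest peak stands for the caller's fragment length is an inference. Merged regions called in all 6 libraries were fitted with limma 3.58.1 (R 4.3.3) on quantile-normalised log2 values, unpaired, with Benjamini-Hochberg adjustment over 42089 regions at 0.05. The pile-up fits used log2(pile-up + 1). Single values were compared by exact two-sided permutation over libraries. The pipeline was tested on simulated data. GENCODE release 44 was the annotation, and scripts ran in Python 3.11.15 (scipy 1.17.1, numpy 2.4.6, matplotlib 3.10.9, pandas 2.3.3).

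Alternatives covered the peak threshold, list length, promoter and window width, merging, fragment-length set, normalisation, measure, replicate block and leaving out each library.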

Additional observations from a re-analysis of the deposited data

How the results depend on the processing

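All 8 promoters stayed called with each library left out and at the other settings, except the 20000 strongest peaks (7, IRF4 lost) and gene starts alone (6, without IRF1 and IRF8). The 5 DMSO-only regions became 1 with equal numbers of strongest peaks, 2 with the 20000 strongest, 8 with 2 of 3 libraries or the 4 long-fragment libraries, and 5 to 8 with each library left out (8 without CB-6644 replicate 2 or DMSO replicate 3). The single CB-6644-only region became 2 with equal numbers, summit windows or 100 kb flanks, 0 at equal background, 1 near a gene other than IRF4 with the 20000 strongest, and 1 to 2 with each library left out (2 without CB-6644 replicate 1). The difference in peaks per library (-8.33) turned to 3 at equal numbers (0.667 near IRF4) and 0.646 per 10000 peaks (-0.361 near IRF4), stayed at -3.67 with the 20000 strongest peaks (-2 near IRF4), and ranged from -17.8 to 0 with each library left out (0 without DMSO replicate 1, -17.8 without CB-6644 replicate 2). Against 0 and 0 in the text, regions fell and rose in 1 and 1 on pile-up, 3 and 4 with the fragment-length term, and 11 and 4 with both (added after seeing the data). Over all regions the calls (194 lower, 216 higher) became 681 and 531 without CB-6644 replicate 2, and 0 and 0 (3950 to 6238 at an unadjusted limma p under 0.05) without each of the other 5 libraries. Reversed log2 differences were, on the logit of the percentile, -0.85 (IRF1 promoter), -0.55 (IRF2 promoter), -0.21 (IRF4 at -18980 bp) and -1.12 (IRF4 at 8201 bp). On pile-up, with and without the fragment-length term, they were -0.20 (IRF1), -0.14 (IRF2), 0.078 (IRF8 promoter) and -0.69 (IRF4 at 8201 bp). The IRF8 promoter also turned to 0.0018 with median centring and 0.0498 without CB-6644 replicate 2. The cause was not tested. Correlations of deviations between libraries of the same replicate number were -0.477, -0.332 and 0.326. CB-6644 replicate 2 and DMSO replicate 1, the short-fragment libraries, had 0.572. Because fragment length crosses the replicate numbers, these values cannot decide whether the numbers pair the libraries. A replicate block gave 0 and 0 calls over all regions (4732 at an unadjusted p under 0.05), left the difference of -8.33 peaks with an exact permutation p of 1.0, and changed no member call. Depth is unknown, and low pile-ups, from 4 tags in CB-6644 replicate 2, limit absent calls.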
